A study of Mus musculus with 8 samples.

Results

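Membrane receptors through which leukocytes sense lysophospholipids, oxysterols, N-acyl amino acids and protons were examined in CD8 T cells sorted from mouse mammary tumours. The 7 genes, P2ry10, Gpr132, Gpr174, Gpr183, Gpr65, Gpr18 and S1pr4, were picked by symbol out of 19673 listed genes, and all 7 were among the 16120 genes with a mean normalized value of at least 10. They were picked with the KO and WT levels of these libraries already known, so that comparison is given for them as a description, without a test. Not every gene is a lysophospholipid or oxysterol receptor: Gpr65 is best known as a proton sensor and Gpr18 as a receptor for N-arachidonyl glycine.

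The tumours came from Py8119 cells, a mouse line of mammary cancer, placed in hosts labelled Mtdh KO (the KO group, 4 libraries) or wild type (the WT group, 4 libraries). Mtdh encodes metadherin, a protein known for its part in tumour growth and spread. After dissociation of the tumours and lysis of red cells, live cells positive for CD45, CD3e and CD8 were sorted for bulk RNA sequencing after depletion of ribosomal RNA. The series describes the replicates as biological. Both groups carried the same tumour line, and the labels used here give neither the strain, sex and age of the hosts nor the cells in which Mtdh was deleted.

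These receptors belong to the class A G protein-coupled receptors and tell lymphocytes about lipids and acid in their surroundings. P2ry10 and Gpr174 respond to lysophosphatidylserine, a phospholipid that has lost an acyl chain. Gpr183 follows gradients of dihydroxylated cholesterol that guide lymphocytes and dendritic cells within lymphoid tissue, and S1pr4 is a lymphoid receptor for sphingosine 1-phosphate. Gpr132 has been described as responding to lysophosphatidylcholine, oxidised fatty acids and acid, and Gpr65 raises cyclic AMP when the surroundings turn acidic.

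The sequence before the annotated start is shown for the 2 receptors whose KO and WT libraries did not overlap, P2ry10 and Gpr132, and for Gpr183 and P2ry10b, the neighbouring paralog of P2ry10, as genes that hold the same ETS letters with overlapping groups. The sequences are from RefSeq on GRCm38.p6, 5′ to 3′ on the gene's strand, and stretches annotated as exon were left out of the longer pair, whereas the windows of 30 bases of P2ry10, Gpr132 and P2ry10b overlap an annotated exon. In the windows of 30 bases the capitals mark ACTTCC, the reverse complement of the ETS motif GGAAGT.
P2ry10, start 2, chrX:107089290-107089319, plus strand: ttaatgtgctctACTTCCtctttcaacatt
Gpr132, chr12:112860943-112860972, minus strand: ccccctcccactACTTCCtgaaacctccca
Gpr183, chr14:121965242-121965271, minus strand: aaaaaaaatctcACTTCCcatcccatttga
P2ry10b, start 3, chrX:107149558-107149587, plus strand: ataaactacgttACTTCCtcttctagctgt

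The longer stretches hold the AP-1 letters of P2ry10 start 1, TGAATCA, and the ETS letters of Gpr132, again in capitals.
P2ry10, start 1, chrX:107088242-107088491, plus strand: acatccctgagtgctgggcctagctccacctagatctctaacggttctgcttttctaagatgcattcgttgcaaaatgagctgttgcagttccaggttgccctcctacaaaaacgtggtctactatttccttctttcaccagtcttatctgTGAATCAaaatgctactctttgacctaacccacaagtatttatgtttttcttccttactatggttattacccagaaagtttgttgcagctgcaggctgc
Gpr132, chr12:112860953-112861166, minus strand: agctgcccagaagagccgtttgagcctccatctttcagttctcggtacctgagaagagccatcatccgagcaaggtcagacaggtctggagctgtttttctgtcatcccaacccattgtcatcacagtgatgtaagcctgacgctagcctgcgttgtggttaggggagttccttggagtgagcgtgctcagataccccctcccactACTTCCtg

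All 7 receptors had a RefSeq start, P2ry10 had 2 and P2ry10b had 3. The 250 bases before each start were searched on both strands for 6 motifs. The shares are per window, so a gene with more starts had more chances of a match. ETS (GGAAGT) was in 19.7% of 32851 mouse promoter windows, RUNX (TGTGGT) in 14%, AP-1 (TGANTCA) in 6.75%, GAS (TTCNNNGAA) in 7.02%, ISRE in 2.98% and CRE (TGACGTCA) in 1.55%. The ETS letters began 31 bases before P2ry10 start 2, 44 before that of Gpr132, 66 before that of Gpr183 and 45 before P2ry10b start 3. They were absent from the windows of P2ry10 start 1 and of P2ry10b starts 1 and 2. RUNX letters lay before P2ry10, Gpr132 and Gpr18, and ISRE letters lay 41 bases before Gpr18. AP-1 letters began 99 bases before P2ry10 start 1 and 117 before P2ry10b start 1, whose groups overlapped. None of the 6 motifs was in the windows of Gpr174, Gpr65 or S1pr4, and no match overlapped another. Genes with the ETS letters thus included both receptors whose groups did not overlap and others whose groups did, and a match says nothing about binding.

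The normalized values rest on few distinct cDNA fragments, which limits how finely a receptor can be read. Libraries held an estimated 16400000 to 29600000 reads, small RNAs included. With small RNAs left out, they held an estimated 113000 to 643000 fragments, with the fewest in KO 2 and the most in WT 3. The targeted gene, Mtdh, averaged 3905 ± 1179 in KO libraries and 9113 ± 2699 in WT libraries (SD, n = 4 each), and the ratio of KO to WT on the log2 scale corresponds to 42.6% of the WT level. Across the 16120 genes fitted with limma, 34 (0.211%) were higher and 4 (0.0248%) lower in KO at a Benjamini-Hochberg adjusted p under 0.05. The total of 38 became 7 without KO 4, 11 without WT 1, 22 without WT 3 and 23 without KO 1. It was 24 without either KO 2 or WT 2, 52 without KO 3 and 70 without WT 4.

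**Figure D1:**
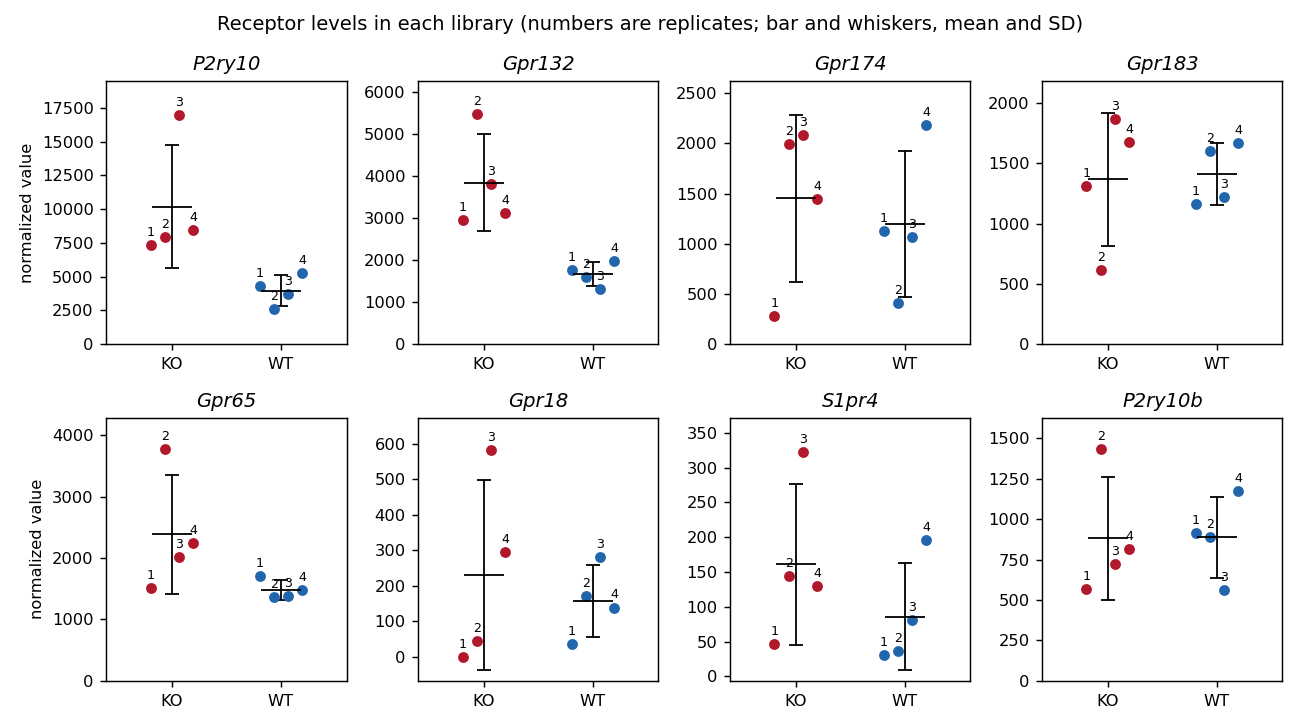
Normalized value of each of the 7 receptors and of P2ry10b, 1 panel per gene with its own linear vertical axis. Points are single libraries, 4 KO on the left and 4 WT on the right, and the bar and whiskers are the mean and SD. For P2ry10 the KO libraries lie at 7346 to 16999 and the WT libraries at 2585 to 5289, whereas the groups overlap in the other panels apart from Gpr132.

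Among the receptors for lysophosphatidylserine, P2ry10 (ENSMUSG00000050921, mm39 chrX:106132098-106148580, plus strand) is reported to drive T cell migration. It stood at 7346, 7921, 16999 and 8469 in KO 1 to 4, against 4287, 2585, 3694 and 5289 in WT 1 to 4. Every KO library lay above every WT library, and KO 3 lay far above the other KO libraries. P2ry10 averaged 10184 ± 4566 in KO and 3964 ± 1131 in WT libraries (SD, n = 4 each), a log2 difference of 1.32 with an SE of 0.27. Without KO 3 the log2 difference was 1.04.

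Gpr174 (ENSMUSG00000073008, chrX:106299484-106340375, plus strand), the other lysophosphatidylserine receptor of the group, is known for restraining T cell responses through cyclic AMP. Its values were 279.2, 1996, 2087 and 1446 in KO 1 to 4, against 1126, 414.4, 1065 and 2180 in WT 1 to 4. The groups overlapped, with KO 1 below every WT library and WT 4 above every KO library. The means were 1452 ± 831.6 in KO and 1196 ± 730.6 in WT libraries (SD, n = 4 each), and the log2 difference was 0.16 with an SE of 0.53. Single libraries set its sign: the difference was 0.83 without KO 1 and -0.27 without WT 2.

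P2ry10b, which lies 44.0 kb from P2ry10 and was not one of the 7, gives a neighbour for comparison. It stood at 565.5, 1432, 720.5 and 812.6 in KO 1 to 4, against 916, 890.9, 563.9 and 1176 in WT 1 to 4. Its log2 difference was -0.05 with an SE of 0.35 and an adjusted p of 0.99 by limma. The ratio of P2ry10 to P2ry10b was 13.1 ± 7.63 in KO libraries, with a range of 5.53 to 23.6, against 4.66 ± 1.49 in WT libraries, with a range of 2.9 to 6.55. The ratio overlapped between groups, since KO 2, at 5.53, lay below WT 3, at 6.55. In their coding sequences P2ry10 and P2ry10b were 74.8% identical, against 53.9% for P2ry10 and Gpr174. The longest P2ry10 transcript shares 443 bases, 15.3% of its length, with an annotated transcript of P2ry10b at 95% identity or more. Searched from the longest P2ry10b transcript, the longest match to any other gene was 110 bases. Reads from the shared stretch could have been split between P2ry10 and P2ry10b, and how many were was not tested.

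**Figure D2:**
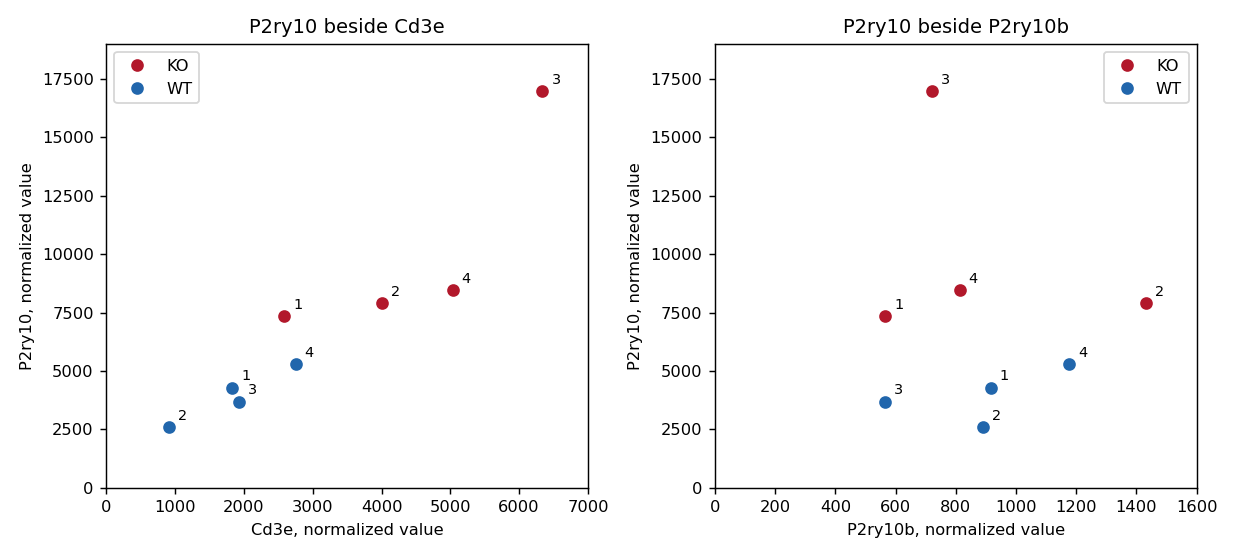
Normalized value of P2ry10 (vertical axis, linear) against that of Cd3e and of P2ry10b (horizontal axes, linear), with each point 1 library, numbered by replicate and coloured by group. P2ry10 over P2ry10b ran from 5.53 to 23.6 in KO libraries and from 2.9 to 6.55 in WT libraries, whereas P2ry10 over Cd3e ran from 1.68 to 2.84 in KO libraries and from 1.92 to 2.84 in WT libraries.

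Gpr132 (ENSMUSG00000021298, chr12:112814493-112831848, minus strand) is reported in mice to hold back T cell proliferation. It stood at 2964, 5488, 3817 and 3131 in KO 1 to 4, against 1773, 1601, 1318 and 1992 in WT 1 to 4. The groups did not overlap, and KO 2, the library with the fewest fragments, was the highest. The means were 3850 ± 1153 in KO and 1671 ± 284.7 in WT libraries (SD, n = 4 each), a log2 difference of 1.18 with an SE of 0.24. With P2ry10, this made 2 of 7 receptors with every KO library above every WT library, as had 2.02% of all tested genes. None of the 7 had every KO library below every WT library, as had 2.09% of tested genes, and 4.11% of tested genes did not overlap in either direction. Since the receptors were picked on this comparison, nothing is read from those counts.

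Gpr65 (ENSMUSG00000021886, chr12:98234894-98242903, plus strand), the proton sensor, stood at 1517, 3770, 2022 and 2242 in KO 1 to 4, against 1714, 1359, 1379 and 1479 in WT 1 to 4. KO 2 was again the highest, 3 of 4 KO libraries lay above the highest WT library, and KO 1 lay among the WT libraries. The means were 2388 ± 969.9 in KO and 1483 ± 163.1 in WT libraries (SD, n = 4 each), a log2 difference of 0.61 with an SE of 0.27. Gpr65 shares 518 bases, 25% of its transcript, with the gene model Gm47566 at 95% identity or more.

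Gpr183 (ENSMUSG00000051212, chr14:122189963-122202607, minus strand), the oxysterol receptor, stood at 1312, 617.6, 1864 and 1681 in KO 1 to 4, against 1162, 1600, 1221 and 1665 in WT 1 to 4. The groups overlapped, with KO 2 the lowest of all libraries. Its means were 1369 ± 550.8 in KO and 1412 ± 257.2 in WT libraries (SD, n = 4 each), a log2 difference of -0.14 with an SE of 0.32. The difference was 0.20 without KO 2, so a single library set the sign here too.

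Gpr18 (ENSMUSG00000050350, chr14:122148665-122153193, minus strand) and S1pr4 (ENSMUSG00000044199, chr10:81333581-81335966, minus strand) were read at the lowest levels. Gpr18 was listed at 0 in KO 1 and stood at 45.14, 581.9 and 295.2 in KO 2 to 4, against 35.35, 172.2, 280.7 and 138.8 in WT 1 to 4. The WT libraries lay within the span of the KO libraries. Its log2 difference was -1.24 with an SE of 1.62, although the KO mean was 1.47 times the WT mean. It was -0.461 with a pseudocount of 10 and 0.67 without KO 1. S1pr4 stood at 46.98, 144.2, 322.1 and 129.5 in KO 1 to 4, against 30.7, 35.96, 80.21 and 195.5 in WT 1 to 4. Its groups overlapped, with a log2 difference of 0.99 and an SE of 1.12. An estimated 3.44 fragments stood behind the median Gpr18 value and 2.15 behind the median S1pr4 value, against 126 for P2ry10 and 47.0 for Gpr132. The SE of both low receptors exceeded their log2 difference in size.

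Gpr18 and Gpr183 lie 36.8 kb apart inside Ubac2, a gene on the opposite strand. Strand is not given in the sources used here, so reads from Ubac2 cannot be told apart from theirs. Ubac2 itself stood at 115.7, 653.9, 832.5 and 637.8 in KO 1 to 4, against 771.1, 375.6, 387.4 and 227.9 in WT 1 to 4. Gpr183 over Ubac2 ranged from 0.944 to 11.3 in KO libraries and from 1.51 to 7.31 in WT libraries. Gpr18 over Ubac2 ranged from 0 to 0.699 in KO and from 0.0458 to 0.725 in WT libraries. How much Ubac2 reads added to either receptor was not tested.

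**Figure D3:**
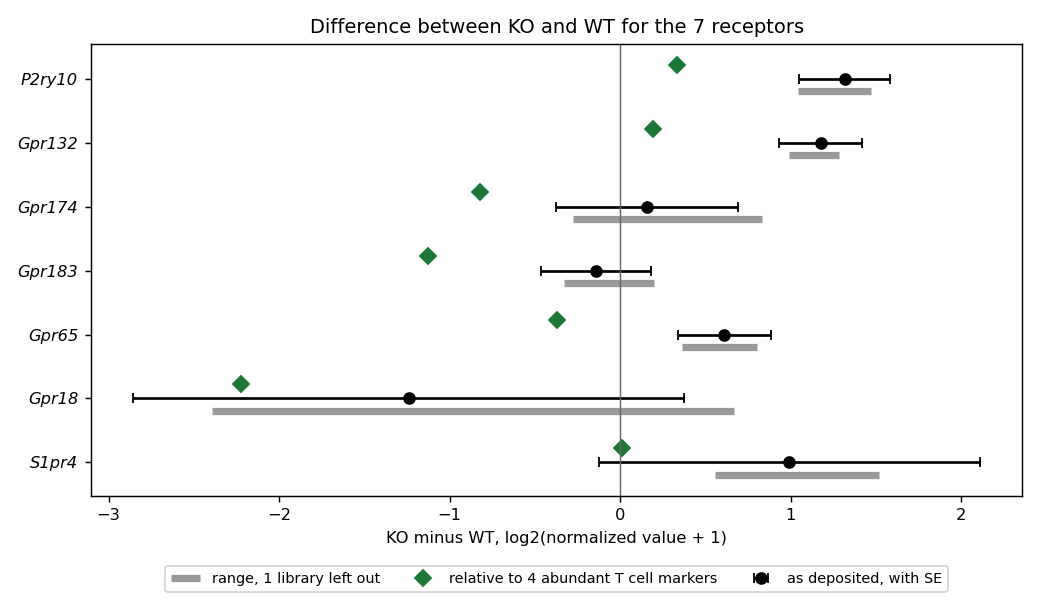
Log2 difference of KO minus WT for the 7 receptors (points, with SE as whiskers), the range over leaving out each library in turn (grey bars), and the value relative to 4 abundant CD8 T cell markers (diamonds). P2ry10 and Gpr132 lie at 1.32 and 1.18, and the range crosses 0 for Gpr174, Gpr183 and Gpr18.

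Of the 7 receptors, 5 had a positive and 2 a negative log2 difference, with a median of 0.61, beside a median of -0.12 over all fitted genes, 43.4% of which were above 0. Per kilobase of the longest annotated transcript, the level ran P2ry10, Gpr132, Gpr65, Gpr183, Gpr174, Gpr18 and S1pr4 in KO libraries. P2ry10 was first at 3530 ± 1580 in KO and 1370 ± 392 in WT libraries, as normalized value per kilobase. Gpr132 and Gpr65 followed, at 1550 ± 465 and 1150 ± 469 in KO, against 674 ± 115 and 717 ± 78.8 in WT. The order of these means was reversed in WT. In both groups the means of Gpr132 and Gpr65 differed by less than the SD between libraries. That SD does not compare the genes within a library, and their order there was not tested. S1pr4 was last, at 67.3 ± 48.5 in KO and 35.9 ± 32.1 in WT libraries, below Gpr18, at 154 ± 179 in KO and 105 ± 67.5 in WT. In KO libraries that gap was smaller than the SD of Gpr18. In WT libraries it was slightly larger than the SD of either gene. Both genes rest on few fragments.

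Markers of the sorted cells were set beside the receptors. The sum of 12 CD8 T cell markers ran from 19336 to 42108 in KO and from 7043 to 23624 in WT libraries, 10 of 12 had a positive log2 difference, none was at 0 in most libraries, and none of the 12 passed the adjusted threshold. Cd3e, a marker used in the sort, averaged 4490 ± 1589 in KO and 1854 ± 754 in WT libraries (SD, n = 4 each). P2ry10 over Cd3e was 2.29 ± 0.555 in KO and 2.25 ± 0.437 in WT libraries, a smaller difference than the spread of either group. Cd3e had a log2 difference of 1.31, against 1.15 for Cd8a, 0.74 for Lck and 0.73 for Cd8b1. It was also among the genes whose values ran closest to P2ry10, so a like ratio follows in part from that choice of marker. In bulk RNA, fewer cells of a type and less RNA per cell cannot be told apart.

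Set against the mean log2 value of those 12 markers, the difference was 0.705 for P2ry10, with an SE of 0.697. It was 0.56 for Gpr132 with an SE of 0.977, and -0.002 for Gpr65 with an SE of 0.968. Gpr174 stood at -0.455 with an SE of 0.579, and Gpr183 at -0.76 with an SE of 0.947. Gpr18 stood at -1.85 with an SE of 1.825, and S1pr4 at 0.38 with an SE of 0.68. On this scale P2ry10 and Gpr18 barely exceeded their SE in size, and every other receptor lay within its SE. Relative to the 4 most abundant markers, Cd3e, Cd8a, Cd8b1 and Lck, P2ry10 stood at 0.335 with an SE of 0.289, Gpr132 at 0.19 with an SE of 0.46 and S1pr4 at 0.01 with an SE of 0.576. Gpr174 stood at -0.824, Gpr183 at -1.126, Gpr65 at -0.371 and Gpr18 at -2.223. Each scale subtracts the same amount from every receptor, so the spacing between receptors does not change, and how far T cell content sets them was not tested.

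Markers of other cells were present in the sorted libraries. The sum of 15 macrophage and monocyte markers was 121966 to 270508 in KO and 199283 to 307265 in WT libraries, with 12 of 15 negative in log2 difference and none at 0 in most libraries. Dendritic cell markers summed to 2956 to 5893 in KO and 2038 to 2876 in WT libraries, with 6 of 9 tested positive and Cd209a and Batf3 mostly at 0. B and plasma cell markers summed to 640 to 1476 in KO and 222 to 580 in WT libraries, with 4 of 6 tested positive and Fcer2a among those mostly at 0. NK cell markers summed to 1445 to 2884 in KO and 1646 to 2503 in WT libraries, with Ncr1 and Klra8 mostly at 0. Of the 5 NK cell markers tested, 3 were positive and 2 negative. Log2 differences were 2.14 for Klrb1c (SE 1.20), 3.37 for Klre1 (SE 2.23) and 0.57 for Ncr1 (SE 1.95). They were -0.11 for Fcer1g (SE 0.28) and -0.59 for Tyrobp (SE 0.59). The NK cell sum was mostly Fcer1g, at a mean of 1213 in KO and 1309 in WT libraries. Red blood cell markers summed to 0 to 1 in KO and 101 to 256 in WT libraries. No gene of these lists passed the adjusted threshold. Receptors such as Gpr183 and Gpr65 are also expressed by these cells, and their part in the receptor values was not tested.

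The genes whose values ran closest to each receptor were found by the root-mean-square difference of log2 values, centred on each gene's mean over the 8 libraries, among 9220 named genes with a mean of at least 100. Closest to P2ry10 were Ttc7b at 0.263, Cd3e at 0.275 and Ptpn22, a phosphatase of T cell receptor signalling, at 0.281. Closest to Gpr132 were Malt1 at 0.214, Atrip at 0.23 and Sik1 at 0.231. Each measure is a likeness of values and says nothing of shared function.

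For Gpr174 the closest were Fam169b at 0.133, Pou6f1 at 0.164 and Lef1, a transcription factor of naive T cells, at 0.241. Gpr65 ran closest to Impa1 and Mrpl15 at 0.151 and to Zc3h12a at 0.157, and Gpr183 to Ccnt2 at 0.123, Ppil3 at 0.144 and Snrpb2 at 0.182. S1pr4 ran closest to Prkcq, a kinase of T cell receptor signalling, at 0.261, and Gpr18 to Smim19 at 0.67. The size of this measure grows with how widely a receptor itself varied, so it is not compared between receptors. Over all 8 libraries this measure includes the difference between groups. Centred within each group, P2ry10 ran closest to Elf1 at 0.109, Dock2 at 0.117 and Prrc2b at 0.13, Gpr132 to Nup98 at 0.099 and to Pdpr and Arid2 at 0.102, Gpr174 again to Fam169b at 0.129, and the closest pair of receptors was Gpr132 and Gpr65 at 0.203.

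Beyond the receptors, 111 genes of their pathways were listed, from ligand metabolism to signalling and desensitization, of which 93 were tested. With limma 0 were called in either direction at an adjusted p under 0.05, and the median log2 difference was 0.02. Of the 93, 9 had an unadjusted p under 0.05 by limma, as had 1080 of all 16120 genes fitted. Among the receptors of related lipids, 0 of 11 were called. Gpr34, a lysophosphatidylserine receptor of myeloid cells, stood at 1513 ± 331.4 in KO and 2995 ± 678.6 in WT libraries (SD, n = 4 each), a log2 difference of -0.99 with an SE of 0.25 and an adjusted p of 0.159. Its groups did not overlap, and it differed in sign from P2ry10, which shares its ligand. S1pr1, the sphingosine 1-phosphate receptor of lymphocyte egress, had a log2 difference of 0.50 and an adjusted p of 0.813.

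Genes that make or clear the ligands, or export protons and lactate, gave no call either. Ch25h, which makes the precursor of the Gpr183 ligand, averaged 722.9 ± 516.8 in KO and 1345 ± 407.9 in WT libraries (SD, n = 4 each), with a log2 difference of -1.08 and an adjusted p of 0.657. Sgpp1, a phosphatase that clears sphingosine 1-phosphate, stood at a log2 difference of -0.57 with an adjusted p of 0.674, and Pam at -0.89 with 0.304. In proton and lactate export, Car9 had a log2 difference of -1.70 with an adjusted p of 0.515, and Slc16a3, a lactate exporter, 0.95 with 0.591. Of the 93 tested pathway genes, 8 had groups without overlap, as had 4.11% of all tested genes. Rgs16, Ccr7 and Slc16a3 were higher in every KO library, as were 2.02% of all tested genes. Gpr34, Pam, Sgpp1, Cyp27a1 and Nr1h3 were lower in every KO library, as were 2.09% of all tested genes. The lists were chosen with earlier results of these data known, so nothing is read from these counts.

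Downstream, Gna13, a G protein subunit known from lymphocyte migration, averaged 10360 ± 1157 in KO and 8580 ± 925.8 in WT libraries (SD, n = 4 each), with an adjusted p of 0.779. Rgs16, which ends G protein signals, was the pathway gene closest to the threshold. It averaged 1030 ± 101.5 in KO and 324.6 ± 246.2 in WT libraries (SD, n = 4 each), a log2 difference of 1.96 with an SE of 0.47 and an adjusted p of 0.116, with no overlap, and its adjusted p was 0.0266 without WT 2. Rgs1, the most abundant of its list, stood at 0.02 and an adjusted p of 0.991. Ccr7, a homing receptor that S1P signalling opposes at exit from lymph nodes, had a log2 difference of 1.28 and an adjusted p of 0.463.

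**Figure D4:**
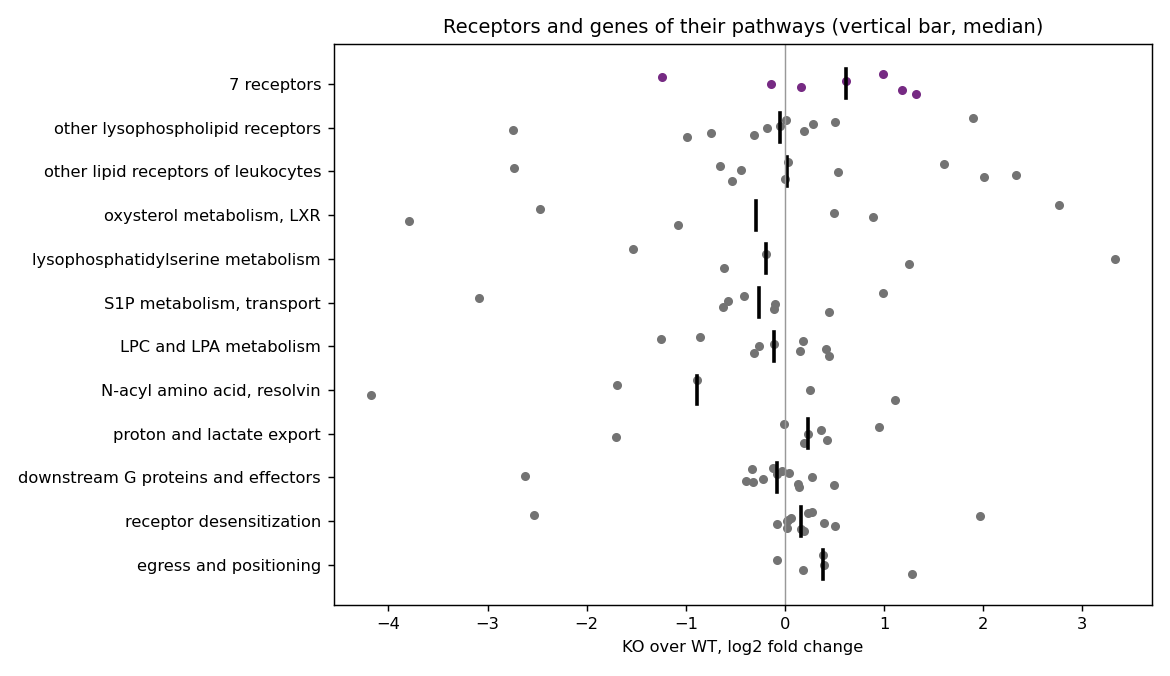
Log2 difference of KO minus WT for the 7 receptors (top row) and the tested genes of each pathway list with more than 1 tested gene, 1 row per list, with each point 1 gene and the median marked. The 93 tested pathway genes, 1 of them not drawn, spread on both sides of 0 with a median of 0.02, and none passed the adjusted threshold.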

How the data were processed

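The authors deposited 1 table of values per gene for 8 libraries, 4 KO and 4 WT, named as normalized with DESeq2, so each value is a signal: an estimated read count divided by a size factor. Per the submitters' processing notes, the tools included STAR 2.7.8a, Partek and DESeq2, and the build was mm39. Their roles and strand are not given in the sources used here. From the values, 1 read was worth 0.788 to 1.3, and 81.7% to 88.1% of low values were whole within 0.02 reads, so a test for counts was not used. Small RNAs held 27.6% to 35.2% of each library. The number of cDNA fragments, with small RNAs left out, was estimated from the share of low genes left undetected, with under 3 reads. Intervals of counting error were not computed.

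Values were used as log2(value + 1), which understates differences of low genes, except that a value of 0 can enlarge them. Genes averaging 10 or more entered a limma 3.58.1 model under R 4.3.3 (intensity trend, two-sided, Benjamini-Hochberg over all genes, threshold 0.05), KO against WT. The script was tested on simulated data. Transcript lengths and promoters came from the GRCm38 reference, shared sequence from BLAST 2.17.0 and coding identity from Biopython 1.88 under Python 3.11.15. No coordinates were converted between builds.

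The receptors, pathway lists and marker lists were chosen with earlier results of these data known. Named pathway genes were, per list, the 2 of lowest p and the 1 of highest mean. Alternatives covered the pseudocount, the minimum mean, scaling, a replicate block, sample weights and each library left out. The value relative to abundant CD8 T cell markers was added after the data were seen. Some marker and pathway genes are not reported here.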

Additional observations from a re-analysis of the deposited data

Results flagged for a closer look

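In 80 groups of 4 values examined, 3 held a library that stood far from the others, and chance flags about 1 in 20 groups. P2ry10 stood at 16999 in KO 3, above 7346 to 8469 in the other KO libraries. Gna13, a G protein subunit, stood at 9952 in WT 4, above 8008 to 8328 in the other WT libraries. Grk6, a receptor kinase, stood at 3362 in KO 3, above 2043 to 2196 in the other KO libraries. KO 3 also had the highest summed CD8 T cell markers, at 42108, and the lowest summed macrophage markers, at 121966. Their part in these values was not tested.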

How the results depend on the processing

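P2ry10 and Gpr132 kept a positive log2 difference under all 17 alternatives, between 1.04 and 1.47 and between 0.99 and 1.29 when each library was left out. Gpr18, listed at 0 in KO 1, stood at -1.24 with a pseudocount of 1 and at -0.461 with a pseudocount of 10. The number of genes called over the whole table, 38, became 63 with a pseudocount of 10, 15 with a minimum mean of 50, 112 with sample weights, and 7 to 70 when a library was left out. The 93 pathway genes gave 2 calls with sample weights (Gpr34 and Rgs16) and 0 to 1 when a library was left out, the 1 being Rgs16 without WT 2. The receptors' median log2 difference, 0.61, was -0.002 relative to the 12 CD8 T cell markers and -0.371 relative to the 4 abundant ones, and 0.365 to 0.834 when a library was left out. The cause of these changes was not tested.

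The labels do not say that equal replicate numbers share a litter or day, so the numbers were not taken as pairs. Deviations of same-numbered KO and WT libraries had correlations of 0.009, 0.026, 0.122 and 0.048. Those of KO and WT libraries with different numbers ran from -0.114 to 0.113. With the replicate block limma called 0 genes, with 1101 at an unadjusted p under 0.05, against 1080 without it. Few fragments limit the reading of Gpr18 and S1pr4, and 4 libraries a group limit all of it.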

Other observations

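Of 10 other lipid receptors of leukocytes that were tested, limma called 0, and 0 had an unadjusted p under 0.05. Ptger4, a prostaglandin receptor that raises cyclic AMP, averaged 1038 ± 77.38 in KO and 1025 ± 192.4 in WT libraries (SD, n = 4 each), with an adjusted p of 0.991 by limma. Cysltr1, a leukotriene receptor, averaged 2219 ± 901.8 in KO and 2043 ± 298.8 in WT libraries (SD, n = 4 each). Hcar2, a receptor for ketone bodies, averaged 743.7 ± 405.7 in KO and 465.3 ± 136.1 in WT libraries (SD, n = 4 each), with an adjusted p of 0.809. Ptger4 and Hcar2 were chosen after their values were seen.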
